A study of Mus musculus with 20 samples.

Results

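The mouse Toll-like receptors Tlr1 to Tlr9 were examined in whole tracheas with and without Myd88, before and after detergent injury. Members were taken by name, as every non-control probe annotated to one of these 9 genes on a whole mouse genome array, which gave 11 probes among 41174, and all 9 genes among 27962 gene names on the array were represented. The 20 one-colour arrays formed 4 groups of 5: WT-control and WT-injury tracheas from C57/Bl6 mice, and KO-control and KO-injury tracheas from Myd88 KO mice. The labels give an age of 4 months for all of them. Injured mice received 2% polidocanol, a detergent that strips the tracheal epithelium, and their tracheas were collected 3 days later, whereas controls were uninjured. Knockout mice were backcrossed to C57/Bl6JOlaHsd and bred apart from the wild-type colony, so that genotype and colony cannot be told apart. RNA came from the whole trachea, in which fewer cells of a type and less RNA per cell cannot be told apart. Mice of both sexes were used in the study, and the sex behind each array was not used here. The labels do not say that each array stands for 1 animal, and p-values therefore measure the spread between these samples.

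Toll-like receptors are membrane proteins that sense microbial molecules through leucine-rich repeats and signal through an intracellular TIR domain. Tlr1, Tlr2, Tlr4, Tlr5 and Tlr6 act at the cell surface, Tlr2 pairing with Tlr1 or Tlr6 to recognise bacterial lipoproteins, Tlr4 recognising lipopolysaccharide and Tlr5 flagellin. Tlr3, Tlr7, Tlr8 and Tlr9 act in endosomes and sense nucleic acids. Myd88 is the adaptor used by all of these receptors except Tlr3, which signals through Ticam1, and Tlr4 uses both adaptors. In the airway they are found on epithelial cells and on resident and recruited myeloid cells.

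Values are log2 intensities relative to the 75th percentile of the same array, and levels are otherwise compared only within a probe. The exceptions are the choice of a gene's brightest probe and the levels of gene lists, which combine probes of different brightness. On the arrays, 57.5% to 67.8% of spots were well above background and the 75th percentile of intensity ranged from 495 to 972. The lowest share was that of KO-injury replicate 5, followed by 59.1% on KO-control replicate 3. The adaptor Myd88 itself lay at 1.94 to 2.28 in WT-control, 2.36 to 2.80 in WT-injury, 1.60 to 2.04 in KO-control and 1.54 to 2.09 in KO-injury tracheas. The deleted part of the gene relative to this probe is not given in the sources used here, so the probe does not check the genotype, and Myd88 was called lower in knockouts after injury (log2 difference -0.77, limma adjusted p = 0.00824) but not before it (-0.21, adjusted p = 1.00). All 10 airway epithelial markers chosen for the tissue were tested, and the club cell secretoglobin Scgb1a1 fell by 7.91 on the log2 scale after injury in wild-type mice (limma adjusted p = 1.0e-05) and by 6.24 in Myd88KO mice (adjusted p = 0.00069), where the injured group rests on 4 arrays because the spot of replicate 5 was left out as an outlier. The fall in knockouts was uneven, with 4.79, -0.84, 2.72 and 0.18 in KO-injury replicates 1 to 4. WT-injury tracheas lay at -1.16 to -0.08 and KO-control tracheas at 7.65 to 8.25. The 5 slides each held 1 array of every group, all with the same replicate number, and replicates 1 and 5 were scanned on another day than replicates 2, 3 and 4.

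Of the 11 probes, 9 probes for 8 genes were well above background on at least 10 arrays and were tested. The probe for Tlr8 (chromosome X, 162017145 to 162017204, minus strand) was well above background on 2 arrays, and a second probe for Tlr4 (chromosome 4, 66363220 to 66363279, plus strand) on 0 arrays, so neither was tested. Tested probes lay on chromosome 5 for Tlr1 (64279687 to 64279746) and Tlr6 (64307937 to 64307996), on chromosome 3 for Tlr2 (83941473 to 83941532), on chromosome 8 for Tlr3 (44181930 to 44181989 and 44182210 to 44182269) and on chromosome X for Tlr7 (162079619 to 162079678), all on the minus strand. Those for Tlr4 (chromosome 4, 66276388 to 66276447), Tlr5 (chromosome 1, 182962847 to 182962906) and Tlr9 (chromosome 9, 105956096 to 105956155) were on the plus strand. These positions are as the files give them, in a genome build that is not given in the sources used here. The probes for Tlr2 and Tlr4 at the first of these positions were each printed on 10 spots, and every other member probe was a single spot.

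After injury in wild-type mice, Tlr1, Tlr6 and Tlr7 rose. They were the 3 member probes called among 9 tested, against 5.26% of all 26063 probes in the same comparison (1372 called, of which 844 were higher). These 3 were also the member probes whose groups did not overlap, which was the case for 12.6% of all probes. The median difference over the 9 member probes was 0.42, against 0.00 over all probes tested. A probe was called at a Benjamini-Hochberg adjusted p under 0.01 from limma.

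Tlr1, a partner of Tlr2 in the recognition of triacylated lipoproteins, lay at -3.91, -4.12, -4.45, -3.90 and -4.17 in WT-control replicates 1 to 5 and at -0.70, -1.74, -2.27, -2.40 and -0.90 in WT-injury replicates 1 to 5. Every injured trachea was above every uninjured one. The log2 difference was 2.51 (SE 0.60; limma adjusted p = 0.00973), a 5.70-fold rise with a 95% confidence interval of 2.38 to 13.6. With normexp background correction the log2 difference was 1.47 (adjusted p = 0.00282). The call was close to the threshold: it was lost when the 75th percentile was taken over spots in place of probes (2.49, adjusted p = 0.010016) and with the replicate number, which is the slide, as a block (adjusted p = 0.0105). It held in 3 of the 20 fits that left out 1 array, whose adjusted p ranged from 0.00053 to 0.0296.

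Tlr6, the other partner of Tlr2, which recognises diacylated lipoproteins, was at -3.85, -4.35, -4.65, -4.36 and -5.18 in WT-control and at -2.28, -2.88, -2.84, -3.15 and -1.42 in WT-injury replicates 1 to 5. The ranges were separate, and 1 of the 5 uninjured arrays was not well above background. The log2 difference of 1.96 (SE 0.42; limma adjusted p = 0.00482) was a 3.90-fold rise (95% confidence interval 2.13 to 7.14). With normexp background correction the difference was 0.88 (adjusted p = 0.0215), and the call held in 14 of the 20 fits without 1 array (adjusted p 0.00215 to 0.0146).

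Tlr7, the endosomal receptor for single-stranded RNA, was at -2.76, -3.22, -3.84, -3.27 and -3.12 in WT-control and at -0.73, -1.92, -1.99, -1.94 and -0.54 in WT-injury replicates 1 to 5. Replicates 1 and 5 were the highest of the injured tracheas for Tlr7 and Tlr1, and likewise for Tlr6, Tlr2 and Tlr4. The log2 difference was 1.82 (SE 0.43; limma adjusted p = 0.00889), a 3.53-fold rise (95% confidence interval 1.89 to 6.59). With normexp the log2 difference was 1.23 (adjusted p = 0.0057). Without normexp, the call held in 6 of the 20 fits without 1 array (adjusted p 0.00437 to 0.0276).

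Tlr2, the common partner of Tlr1 and Tlr6, was at 1.00, 0.33, 0.33, 1.33 and 0.54 in WT-control and at 2.33, 1.92, 1.22, 1.53 and 2.86 in WT-injury replicates 1 to 5. The injured group was higher on all 5 slides, but the ranges overlapped, and the difference of 1.27 (95% confidence interval 0.38 to 2.15; limma adjusted p = 0.0556) did not pass the threshold. Within the 3 slides of replicates 2, 3 and 4 the mean difference on the log2 scale was 2.02 for Tlr1, 1.495 for Tlr6, 1.496 for Tlr7 and 0.89 for Tlr2. Within the slides of replicates 1 and 5, the corresponding values were 3.24, 2.66, 2.31 and 1.82. The direction was thus the same on both scan days, and the differences were larger on the day of replicates 1 and 5.

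**Figure D1:**
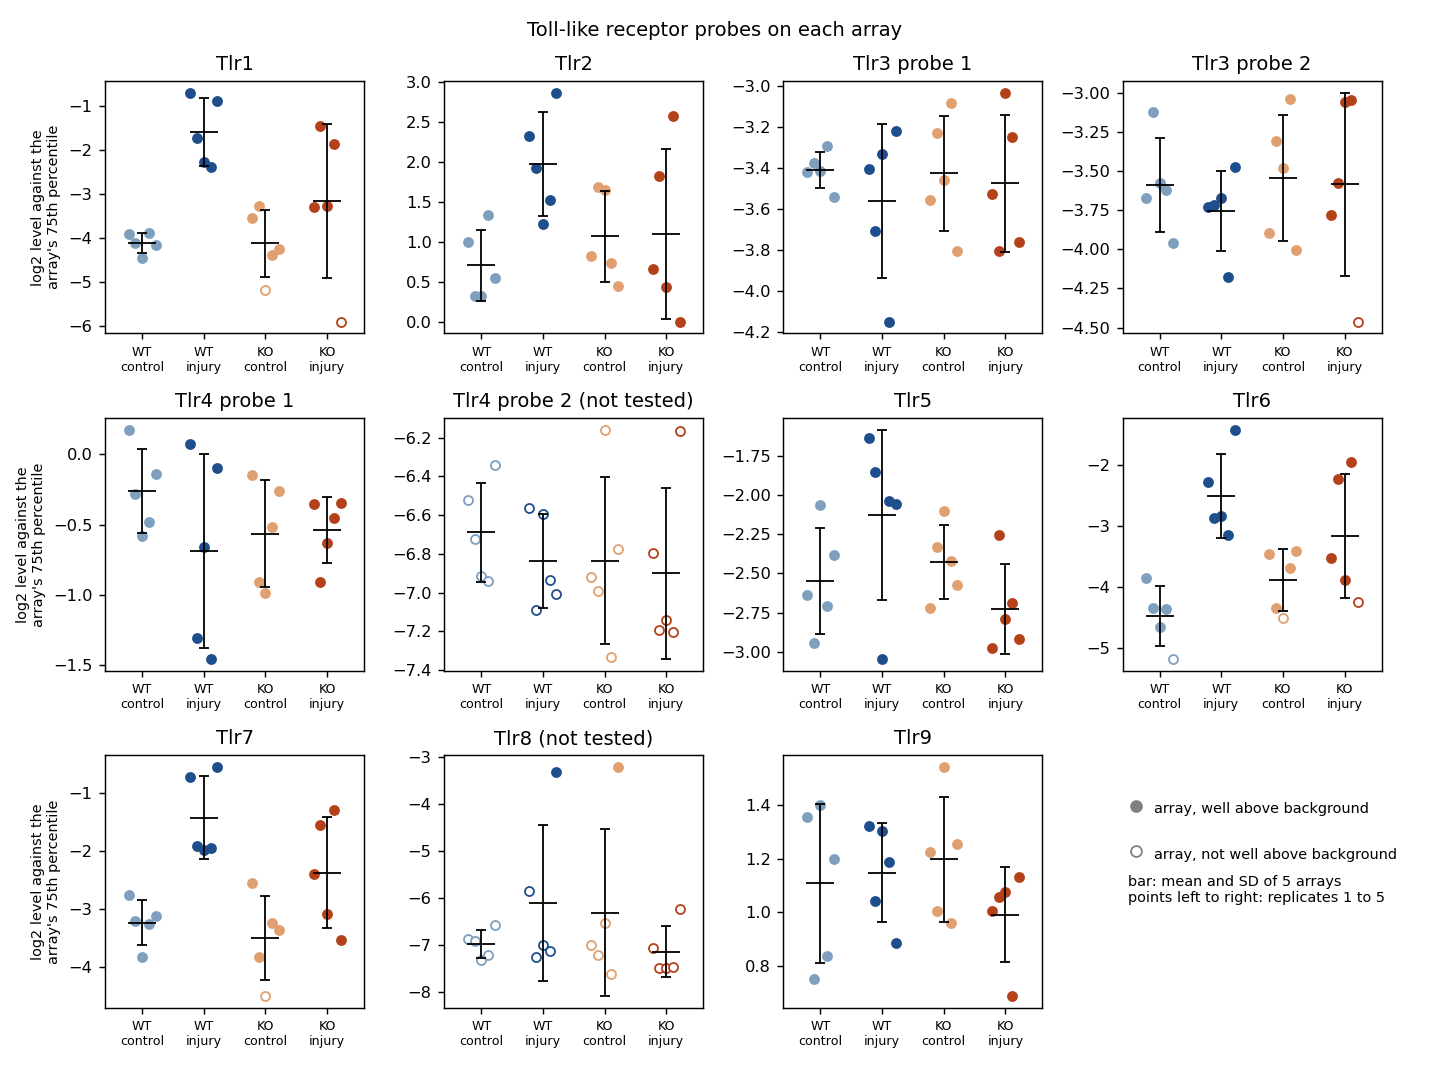
Log2 level of each Toll-like receptor probe against the 75th percentile of its array (vertical axis) in the 4 groups (horizontal axis), with 1 point per array, open where the probe was not well above background, and the mean and SD of 5 arrays. For Tlr1, Tlr6 and Tlr7 the 5 WT-injury points all lie above the 5 WT-control points, whereas the KO-injury points spread over up to 4.45 log2 units.

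Because Tlr1 and Tlr6 rose together and are neighbours on chromosome 5, and Tlr2 is their partner, the promoter windows of these 3 genes are shown, from 250 bases before to 50 bases after an annotated start, as RefSeq gives them for build GRCm38.p6. The table held windows for 7 of the 9 members, all but Tlr4 and Tlr7. Windows were searched on both strands for the ETS core GAGGAA, the AP-1 motif TGANTCA, the GAS motif TTCNNNGAA and the kB consensus, which are found in 28.3%, 7.81%, 8.3% and 8.46% of 32851 promoter windows of this length. Matches are in capitals and are a description of letters, not of binding.
Tlr1, chr5:64933509-64933808, minus strand: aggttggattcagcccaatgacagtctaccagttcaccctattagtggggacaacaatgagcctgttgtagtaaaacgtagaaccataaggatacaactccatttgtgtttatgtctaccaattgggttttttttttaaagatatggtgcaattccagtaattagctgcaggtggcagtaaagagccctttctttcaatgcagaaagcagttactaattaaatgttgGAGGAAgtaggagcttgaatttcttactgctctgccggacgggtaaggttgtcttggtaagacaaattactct
Tlr6, chr5:64959999-64960298, minus strand: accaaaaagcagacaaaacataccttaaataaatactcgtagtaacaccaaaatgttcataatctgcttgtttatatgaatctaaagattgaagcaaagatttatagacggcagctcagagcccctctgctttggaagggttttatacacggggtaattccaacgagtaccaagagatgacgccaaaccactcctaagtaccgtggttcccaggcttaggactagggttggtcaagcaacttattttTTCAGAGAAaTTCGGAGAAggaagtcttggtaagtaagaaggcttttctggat
Tlr2, chr3:83841559-83841858, minus strand: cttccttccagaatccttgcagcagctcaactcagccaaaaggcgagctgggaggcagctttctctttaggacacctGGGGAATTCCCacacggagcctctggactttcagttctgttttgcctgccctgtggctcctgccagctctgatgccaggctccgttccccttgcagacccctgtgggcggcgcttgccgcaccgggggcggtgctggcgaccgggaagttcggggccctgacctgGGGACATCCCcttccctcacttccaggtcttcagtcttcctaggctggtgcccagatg

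The Tlr1 window held 1 ETS core, the Tlr6 window 2 GAS motifs and the Tlr2 window 3 kB matches, of which a pair overlap each other. Each of Tlr1 and Tlr6 has another annotated start, whose window held 1 GAS motif for Tlr1 and 0 matches for Tlr6. Among members that were not called, the Tlr3 window held 1 kB match, the Tlr5 window 0 matches, the Tlr8 window 1 ETS core and 1 GAS motif, and the Tlr9 window 2 ETS cores and 1 AP-1 motif.

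After injury in Myd88KO mice, 0 of the 9 member probes were called, where limma called 0.376% of all probes (98 of 26063). At an unadjusted p under 0.05 there was 1 of the 9 members, Tlr7, against 19.5% of all probes. The median difference over member probes was 0.03, against -0.07 over all probes. The injured knockouts differed widely among themselves.

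Tlr7 was at -2.55, -3.83, -4.51, -3.25 and -3.36 in KO-control and at -2.40, -1.55, -3.09, -1.29 and -3.53 in KO-injury replicates 1 to 5. Replicates 1, 2 and 4 were above every uninjured knockout, replicate 1 by a small margin, and replicates 3 and 5 fell within the uninjured range. The log2 difference was 1.13 (95% confidence interval 0.23 to 2.03; limma adjusted p = 0.155).

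Tlr1 was at -3.54, -3.27, -5.20, -4.40 and -4.25 in KO-control and at -3.29, -1.46, -3.27, -1.86 and -5.92 in KO-injury replicates 1 to 5. KO-injury replicates 2 and 4 lay within the WT-injury range, and replicate 5 was the lowest of all 20 arrays and not well above background. The difference of 0.97 had a 95% confidence interval of -0.29 to 2.23 (limma adjusted p = 0.396).

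Tlr6 was at -3.45, -4.34, -4.51, -3.69 and -3.41 in KO-control and at -3.53, -2.22, -3.88, -1.96 and -4.24 in KO-injury replicates 1 to 5, a difference of 0.72 (95% confidence interval -0.16 to 1.59; limma adjusted p = 0.362). Tlr2 was at 0.82, 1.69, 1.64, 0.73 and 0.45 in KO-control and at 0.67, 1.82, 0.44, 2.56 and -0.00016 in KO-injury replicates 1 to 5, a difference of 0.03 (95% confidence interval -0.85 to 0.91; limma adjusted p = 0.979). For all 4 genes, KO-injury replicates 2 and 4 were the 2 highest of their group and replicate 5 the lowest. On KO-injury replicate 5, the array with the lowest share of spots above background, the Tlr1, Tlr6 and second Tlr3 probes were not well above background, and on KO-control replicate 3 the Tlr1, Tlr6 and Tlr7 probes were not. The part of array quality in these values was not tested.

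**Figure D2:**
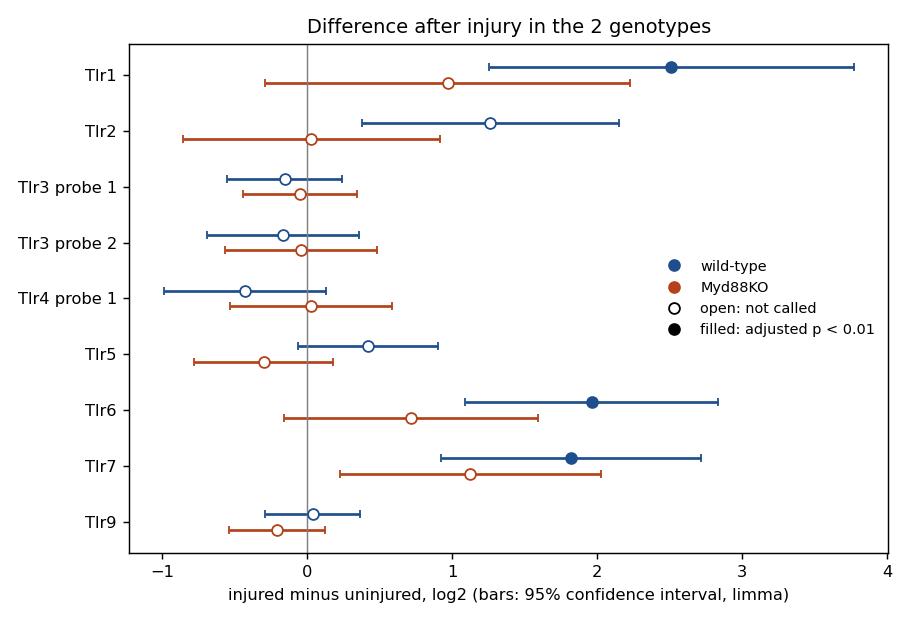
Injured minus uninjured log2 level (horizontal axis) of each tested probe (vertical axis) in wild-type and Myd88KO tracheas, with 95% confidence intervals from limma and filled points at an adjusted p under 0.01. The 3 filled points are Tlr1, Tlr6 and Tlr7 in wild-type mice, at 2.51, 1.96 and 1.82, and the intervals of the genotypes overlap for every probe.

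The injury difference in knockouts varied between slides. On the slides of replicates 2, 3 and 4, KO-injury minus KO-control averaged 2.09 for Tlr1, 1.49 for Tlr6, 1.89 for Tlr7 and 0.25 for Tlr2 on the log2 scale. On the slides of replicates 1 and 5 the averages were -0.71, -0.45, -0.01 and -0.30. Tlr2 did not share the split of the other three, with 0.13, -1.21 and 1.83 on slides 2, 3 and 4. In the fit without KO-injury replicate 5 no member was called after injury in Myd88KO mice either. Which of slide, scan day and sample these differences follow cannot be told apart with 1 array of each group on a slide.

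**Figure D3:**
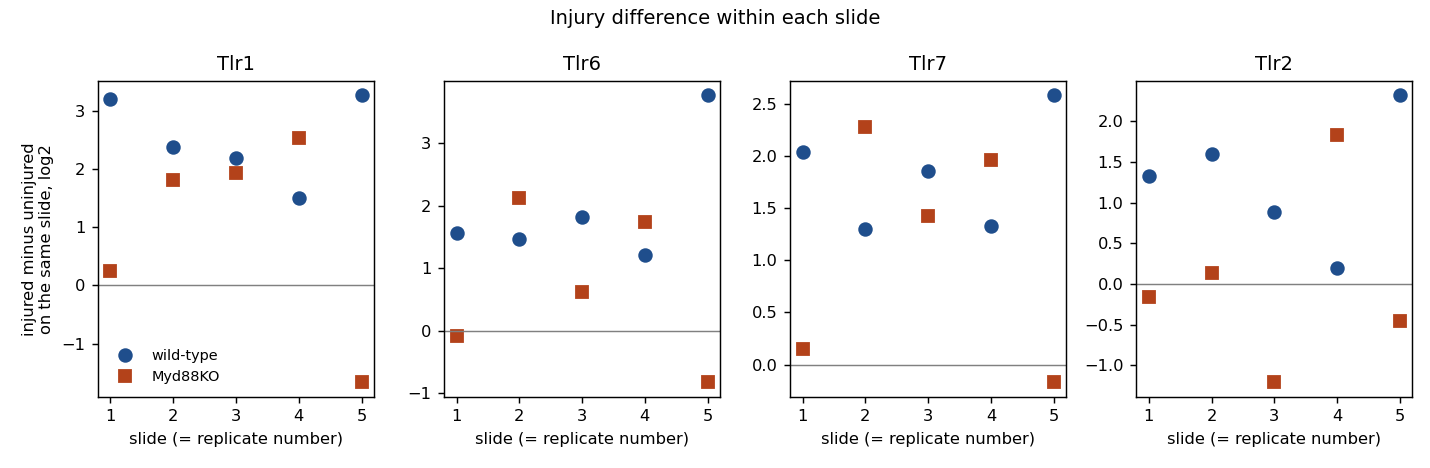
Injured minus uninjured log2 level on the same slide (vertical axis) for each of the 5 slides (horizontal axis) in wild-type (circles) and Myd88KO (squares) tracheas. Wild-type values are above 0 on all 5 slides for each of the 4 genes, whereas Myd88KO values for Tlr1, Tlr6 and Tlr7 are above 0 on slides 2, 3 and 4 and between -1.67 and 0.25 on slides 1 and 5.

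Between genotypes, 0 member probes were called in uninjured tracheas (0.384% of all probes, 100 of 26063) and 0 in injured tracheas (0.38%, 99 of 26063). In uninjured tracheas the median difference over members was 0.04, against 0.04 over all probes, 0 of the 9 members had an unadjusted p under 0.05, against 5.59% of all probes, and the widest difference was 0.59 for Tlr6 (95% confidence interval -0.28 to 1.47; limma adjusted p = 1.00). Tlr6 was higher in the knockout on all 5 slides, by 0.0024 to 1.77, and Tlr4 was lower on all 5, by 0.03 to 0.63 on the log2 scale (difference -0.30, limma adjusted p = 1.00).

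In injured tracheas, the knockout minus wild-type difference was -1.56 for Tlr1 (95% confidence interval -2.82 to -0.30; limma adjusted p = 0.276), -0.95 for Tlr7 (-1.85 to -0.05; adjusted p = 0.365), -0.60 for Tlr5 (-1.08 to -0.12; adjusted p = 0.271), -0.87 for Tlr2 (-1.76 to 0.01; adjusted p = 0.407) and -0.65 for Tlr6 (-1.53 to 0.22; adjusted p = 0.548). Tlr1, Tlr5 and Tlr7 had an unadjusted p under 0.05, as did 12.5% of all probes. Within the slides of replicates 2, 3 and 4 the Tlr1 and Tlr7 differences were -0.06 and -0.03, and within those of replicates 1 and 5 they were -3.81 and -2.34. For Tlr5 the values were -0.27 and -1.11, whereas the sign turned for Tlr2 (0.05 and -2.26) and Tlr6 (0.27 and -2.04). The Tlr1 values on slides 2, 3 and 4 were 0.27, -0.99994 and 0.53, so that their mean near 0 held both signs.

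The injury responses of the genotypes did not differ past the threshold for any member, and limma called 0% of all probes in this comparison, which had 2703 probes (10.4% of 26063) at an unadjusted p under 0.05. Tlr6 (difference of differences -1.25, 95% confidence interval -2.48 to -0.01; adjusted p = 0.478) and Tlr5 (-0.72, -1.40 to -0.04; adjusted p = 0.469) were the members with an unadjusted p under 0.05. For Tlr1 the value was -1.54 (-3.32 to 0.24), for Tlr2 -1.24 (-2.49 to 0.02) and for Tlr7 -0.69 (-1.96 to 0.58). The rise of Tlr1, Tlr6 and Tlr7 in wild-type mice and the absence of a call in Myd88KO mice were thus not shown to differ. On the slides of replicates 2, 3 and 4 alone, the Tlr6 value was -0.00098 and the Tlr5 value -0.56. On the slides of replicates 1 and 5 the genotypes lay further apart. There the injury difference was 2.66 in wild-type and -0.45 in Myd88KO tracheas for Tlr6, and 0.67 and -0.30 for Tlr5.

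The remaining receptors were not called in any comparison. Tlr5, the flagellin receptor, was at -2.64, -2.95, -2.06, -2.71 and -2.38 in WT-control, -1.63, -1.85, -3.05, -2.04 and -2.05 in WT-injury, -2.72, -2.33, -2.10, -2.42 and -2.57 in KO-control and -2.97, -2.25, -2.79, -2.69 and -2.92 in KO-injury replicates 1 to 5. All 4 groups overlapped. WT-injury replicate 3 was the lowest of the 20 arrays, whereas the other four were the 4 highest. The difference after injury was 0.42 in wild-type (limma adjusted p = 0.255) and -0.30 in Myd88KO tracheas (adjusted p = 0.510).

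Tlr4, the lipopolysaccharide receptor, was at 0.18, -0.28, -0.58, -0.49 and -0.14 in WT-control, 0.08, -1.31, -0.66, -1.46 and -0.10 in WT-injury, -0.14, -0.91, -0.99, -0.51 and -0.26 in KO-control and -0.35, -0.91, -0.63, -0.45 and -0.35 in KO-injury replicates 1 to 5. The difference after injury was -0.43 in wild-type (95% confidence interval -0.99 to 0.13; limma adjusted p = 0.327) and 0.03 in Myd88KO tracheas (-0.53 to 0.58; adjusted p = 0.970). WT-injury replicates 2 and 4 were the 2 lowest arrays of the series for this probe.

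Tlr3, the double-stranded RNA receptor that does not use Myd88, was measured by a pair of probes whose group means stayed within -3.56 to -3.41 and -3.76 to -3.55. Their differences after injury were -0.15 (95% confidence interval -0.55 to 0.24) and -0.17 (-0.69 to 0.36) in wild-type tracheas and -0.05 (-0.44 to 0.35) and -0.04 (-0.56 to 0.48) in Myd88KO tracheas, with limma adjusted p of 0.652, 0.722, 0.917 and 0.949. The probes gave the same direction in both injury comparisons.

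Tlr9, the endosomal receptor for unmethylated CpG DNA, had group means of 1.11 ± 0.30 in WT-control, 1.15 ± 0.18 in WT-injury, 1.20 ± 0.23 in KO-control and 0.99 ± 0.18 in KO-injury tracheas (SD, n = 5 each). The groups overlapped, and its differences after injury were 0.04 (95% confidence interval -0.29 to 0.37) and -0.21 (-0.53 to 0.12; limma adjusted p = 0.505). Tlr8, another receptor for single-stranded RNA, was well above background in WT-injury replicate 5 and KO-control replicate 5 alone, and no fold is given for it.

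In order of mean level, Tlr1, Tlr2, Tlr6 and Tlr7 each had WT-injury highest and KO-injury second, followed by the uninjured groups. Tlr5 also had WT-injury highest, but KO-injury lowest. Tlr4 was highest in WT-control, and Tlr9 was highest in KO-control and lowest in KO-injury. In none of these orders, for any member, were neighbouring groups without overlap.

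Over the 20 arrays, the genes whose pattern was most like that of Tlr7 were Clec4a2 (Pearson r = 0.977), Cd48 (r = 0.977) and Pirb (r = 0.976). For Tlr6 they were Apobr, Clec7a and Clec4e (r = 0.954, 0.952 and 0.948), and for Tlr1 they were Gngt2, Tnfrsf13b and Lcp2 (r = 0.958, 0.950 and 0.949). For Tlr2 the closest were Sulf2, Ramp3 and Grk5 (r = 0.939, 0.931 and 0.923), for Tlr4 Trps1, Skil and Tank (r = 0.956, 0.945 and 0.941), and for Tlr5 Foxk1, Zdhhc14 and Oasl1 (r = 0.847, 0.809 and 0.807). For Tlr3 they were Suco, Pwwp3b and Efcab14 (r = 0.875, 0.858 and 0.846) and for Tlr9 Tango6, Mdga2 and Ttc34 (r = 0.925, 0.923 and 0.922). Between members, r was 0.909 for Tlr1 and Tlr7, 0.902 for Tlr6 and Tlr7 and 0.848 for Tlr1 and Tlr6, and 0.807, 0.882 and 0.740 after removal of group means. These values describe arrays that share groups, slides and scan days, and carry no test.

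The other genes of the pathway were read from 6 lists holding 57 genes, of which 50 were tested with 1 probe each. After injury in wild-type tracheas 4 were higher and 1 lower, with a median difference of 0.22, and in Myd88KO tracheas 0 were called, with a median of 0.07. Over all probes limma called 5.26% in the first comparison and 0.376% in the second, and 0 of 50 lies near the second share. Of the 4, Cd180 and Ccl3 passed the filter mainly through the injured groups. Among the 9 accessory proteins, Cd180, a receptor homologue, and its partner Ly86 rose by 2.03 (limma adjusted p = 0.00761) and 1.43 (adjusted p = 0.00907) in wild-type mice. Cd180 was well above background on 12 arrays, 9 of them injured, and on 1 of the 5 uninjured wild-type arrays, so that it was tested through the groups where it was high and its difference is taken against values near the limit of detection. Cd36, a scavenger receptor that assists Tlr2 and Tlr6, gave -1.27 at its brightest probe (adjusted p = 0.0174), which was not called, and -1.23 at its other tested probe, which was (adjusted p = 0.00647). Cd14, Ly96 and Unc93b1, which serve Tlr4 and the endosomal receptors, had differences of 0.35, 0.11 and 0.67 and were not called.

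Lbp, the lipopolysaccharide-binding protein, was higher in Myd88KO than in wild-type tracheas, by 1.36 in uninjured (limma adjusted p = 0.00326) and 1.29 in injured mice (adjusted p = 0.0059). It was the only gene of the 6 lists called between uninjured genotypes, and with Myd88 itself one of the 2 called between injured genotypes. Among the 12 target genes, 8 were tested, and the chemokines Ccl3 and Ccl4 rose in injured wild-type tracheas by 5.98 (limma adjusted p = 0.00054) and 3.39 (adjusted p = 0.00724), Ccl3 being well above background on 10 arrays, the minimum for a test, of which 9 were injured. Ccl3 was thus tested mainly through the injured groups, where it was high, and its call adds no support. Its value is a fitted difference against uninjured arrays of which 1 of 5 was well above background, and its size is uncertain. In Myd88KO tracheas Ccl3 was well above background on 0 of the 5 uninjured and 4 of the 5 injured arrays, at least 4.48-fold higher in the latter against the limit of detection, and was not called (limma adjusted p = 0.067). The Ccl4 difference in these mice was 1.54 (adjusted p = 0.284). Among targets that were not called, Il1b gave 3.84 (limma adjusted p = 0.02275) in wild-type and 2.40 (adjusted p = 0.224) in Myd88KO tracheas. Cxcl10 gave 1.95 (limma adjusted p = 0.0403) and -0.56, and the cytokine gene Tnf -0.21 and 0.48. Cxcl1, Ptgs2 and Ccl5 gave 0.81, 0.63 and 0.56 in wild-type and -0.23, 0.44 and -0.21 in Myd88KO tracheas. Il6, Il12a, Il12b and Cxcl2 were not tested.

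Of the 5 adaptors 3 were tested, and in wild-type mice Myd88, Ticam1 and Tirap gave differences after injury of 0.58 (limma adjusted p = 0.0111), 0.26 and -0.09. Of 13 kinases and ubiquitin ligases, the IkB kinase subunit gene Ikbkg was lower (log2 difference -1.0999, limma adjusted p = 0.00239) at its brightest probe, but its other 2 tested probes gave 0.00 and -0.57 and were not called. Of 7 tested transcription factors and 10 inhibitors 0 were called in any comparison. After injury in wild-type mice, the inhibitors Socs3 and Nfkbie gave 1.28 and 1.16 (limma adjusted p = 0.0312 and 0.0227). Irak3, a kinase-like inhibitor of receptor signalling, gave 0.82 (limma adjusted p = 0.0277) and 0.58 at another probe (adjusted p = 0.183). The median over the 10 inhibitors was 0.14.

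**Figure D4:**
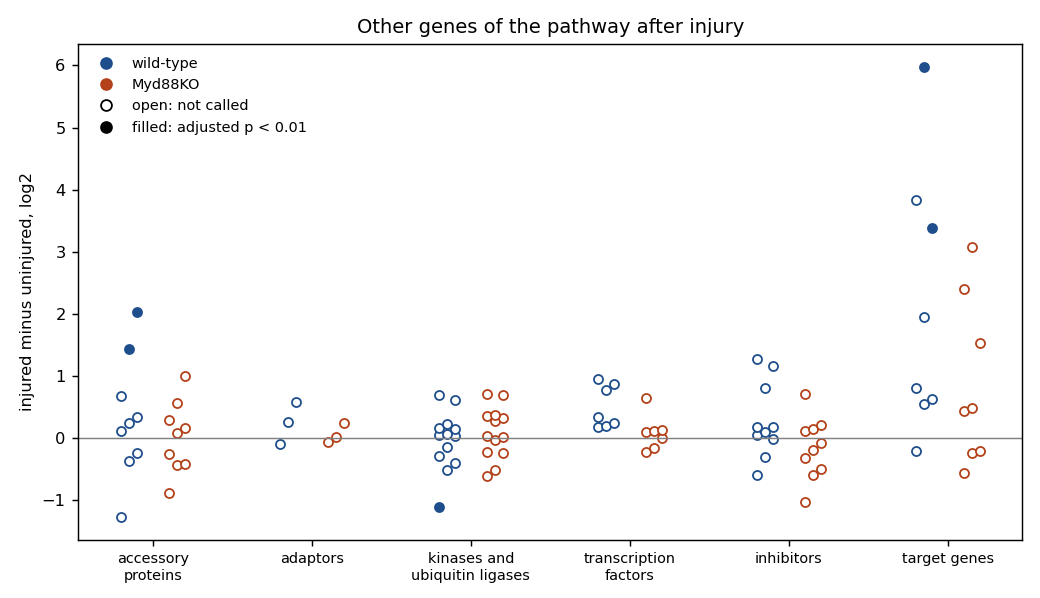
Injured minus uninjured log2 level (vertical axis) of each tested gene in 6 lists of the pathway (horizontal axis) in wild-type and Myd88KO tracheas, filled at an adjusted p under 0.01. The 5 filled points, Cd180, Ly86, Ikbkg, Ccl3 and Ccl4, are all in wild-type tracheas, and the highest Myd88KO point, Ccl3, is a fitted value against uninjured arrays that were not well above background. Cd180 and Ccl3 were tested mainly through the injured groups, where they were high.

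Some markers of myeloid cells were called higher in the comparison in which Tlr1, Tlr6 and Tlr7 were. Of 9 macrophage markers, all tested, 5 were called higher in injured wild-type tracheas, of which Cd68 by 3.27, Adgre1 by 2.03, C1qa by 1.78 and C1qb by 1.77 rose most (limma adjusted p = 0.00091, 0.00408, 0.00146 and 0.00198). Csf1r rose by 1.55 (limma adjusted p = 0.0077), but its other tested probes gave 1.18 and 1.52 and were not called. Marco, Mrc1 and Cd163 gave 2.69, 1.32 and 0.55 and were not called. The median difference of the list was 1.77, and 0 of the 9 were called after injury in Myd88KO tracheas (median 0.71). Over all probes limma called 5.26% after injury in wild-type and 0.376% in Myd88KO tracheas. These shares apply to every marker list here, and 0 of 9 lies near the second. The mean log2 level of the list ranged from 0.68 to 1.101 in WT-control, 1.97 to 3.23 in WT-injury, 0.62 to 1.54 in KO-control and 0.76 to 2.45 in KO-injury tracheas. KO-injury replicates 2 and 4 were the highest of their group, at 2.28 and 2.45, and replicate 5 the lowest, at 0.76, as for Tlr1, Tlr2, Tlr6 and Tlr7. The same arrays were the highest and the lowest in mean log2 level for the neutrophil, dendritic cell and lymphocyte lists given below. This was also so for the target genes and transcription factors of the pathway, so the order is not particular to macrophage markers. The summed linear level, relative to the 75th percentile, was 305 to 539, 332 to 535, 278 to 481 and 282 to 458 in the same order of groups. Most of this sum was Lyz2, the lysozyme gene, whose difference after injury in wild-type mice was -0.06 (limma adjusted p = 0.888). Without Lyz2 the sum was 8.70 to 12.1, 21.1 to 55.1, 8.29 to 15.2 and 7.91 to 32.4.

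Of 9 neutrophil markers 5 were tested, and 1 was called, Csf3r, with a fitted difference of 4.05 in injured wild-type tracheas (limma adjusted p = 0.0038). Csf3r was well above background on 10 arrays, the minimum for a test, of which 8 were injured and 2 were WT-control, so that it too was tested through the groups where it was high and the size is uncertain. The granule protein genes Ngp and Elane were well above background on 0 arrays. The summed level of the 5 was 2.51 to 33.3 in WT-control, 14.7 to 259 in WT-injury, 0.36 to 2.37 in KO-control and 0.40 to 42.9 in KO-injury tracheas. Of 7 dendritic cell markers 5 were tested, and Ccr7 and Itgax rose by 2.47 and 1.58 (limma adjusted p = 0.00116 and 0.00617), although another Itgax probe gave -0.71 and was not called, and Ccr7 was well above background on 2 of the 5 WT-control arrays. Their summed level was 5.87 to 13.2, 9.26 to 25.6, 10.2 to 14.8 and 6.28 to 13.0 in the same order of groups, and Clec9a was well above background on 0 arrays.

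Of 8 lymphocyte markers 6 were tested and 0 called, with a summed level of 0.46 to 1.24, 0.69 to 1.33, 0.83 to 1.53 and 0.66 to 1.53. Of 10 epithelial markers 3 fell after injury in wild-type tracheas (Scgb1a1, Scgb3a2 and Dnahc5) and 1, Scgb1a1, in Myd88KO tracheas. The summed level was 762 to 1212 in WT-control, 157 to 393 in WT-injury, 777 to 1152 in KO-control and 282 to 739 in KO-injury tracheas. Bright genes weigh most in this sum, and Scgb3a2, with a wild-type injury difference of -5.77, was the brightest of the 10 in WT-control tracheas. In the same comparison Krt14, Krt8, Krt5 and Epcam gave 1.14, 0.83, 0.34 and 0.10. Foxj1, Trp63 and Cdh1 gave -0.41, -0.22 and -0.11, and these markers were not called. The fall of the sum is therefore not a fall of all epithelial markers, and the sums of single arrays carry the same weighting. WT-injury replicates 1 and 5 had the lowest sums of their group (157 and 164), and KO-injury replicates 1 and 5 the highest of theirs (540 and 739, the latter without Scgb1a1, left out on that array), with mean log2 levels of 4.391 and 4.26. The mean log2 level was 4.387 to 4.661 in KO-control and 2.06 to 3.36 in WT-injury tracheas, so KO-injury replicate 1 lay within the range of uninjured knockouts. WT-injury replicates 1 and 5 are also the injured wild-type arrays on which Tlr1, Tlr2, Tlr4, Tlr6 and Tlr7 were highest. On their slides the injured knockout minus wild-type differences were lowest for every tested member probe except that of Tlr9. All 9 genes of other tissues attached to the trachea (muscle, cartilage, fat and thyroid) were tested and 0 called, with a summed level of 419 to 660, 299 to 683, 457 to 747 and 232 to 436. The part of these cell types in the receptor differences was not tested.

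**Figure D5:**
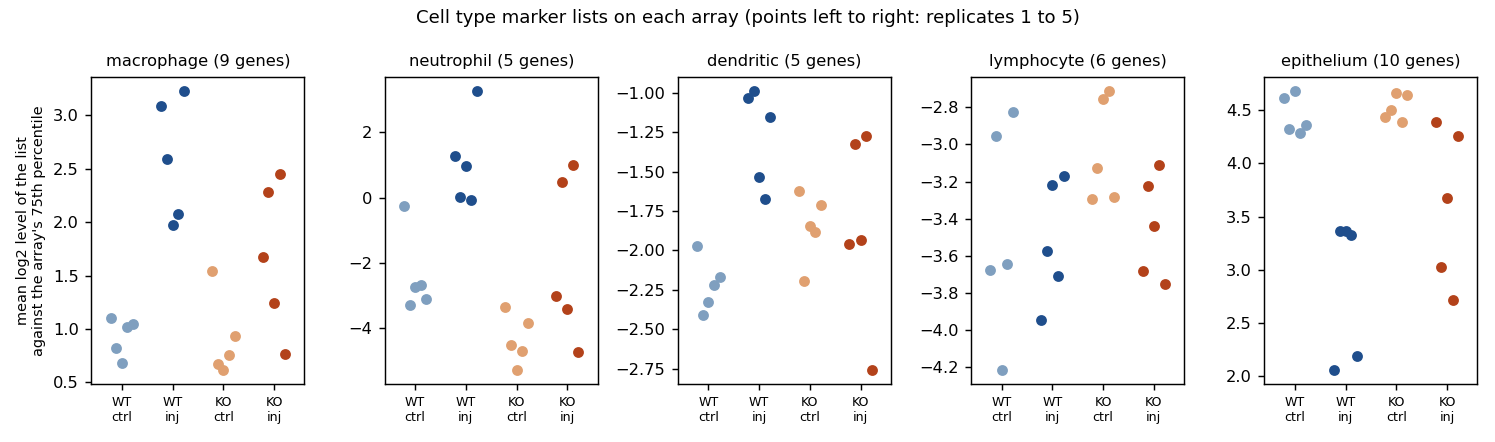
Mean log2 level of 5 lists of cell type markers (vertical axis) on each array, by group (horizontal axis). In the macrophage panel all 5 WT-injury arrays, at 1.97 to 3.23, lie above the WT-control arrays, and KO-injury replicates 2 and 4 lie above the other KO-injury arrays. KO-injury replicates 2 and 4 are also the highest of their group in the neutrophil, dendritic and lymphocyte panels, and the lowest in the epithelium panel.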

How the data were processed

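Gene expression was measured in 20 whole-trachea samples on one-colour Agilent whole mouse genome arrays, 5 per group by sample title. The study's methods describe them as biological replicates. The authors deposited Feature Extraction (version 9.5.1.1) output, in which each spot's intensity is background-subtracted and detrended but not scaled between arrays, and a value table whose entries were 0.995 to 1 times this intensity. Control spots (1639 of 45018) and 1960 values marked as outliers were left out, the 1 saturated value was kept, spots of a probe were averaged as log2, and the 75th percentile over the 41174 probes of each array was subtracted. This percentile was chosen after calls with it and with the percentile over spots had both been seen, because the earlier processing of these data used it, and the alternative is reported. Probes well above background on at least 10 arrays (50%, as in the study's methods; 26063 probes) were fitted with limma 3.58.1 in R 4.3.3 (all 20 arrays, group means, eBayes), and p-values were adjusted by Benjamini-Hochberg within each of 5 comparisons and called under 0.01. The one-way parametric test of the study was run as an alternative. Confidence intervals are at 95%, and the number of arrays limits the precision.

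Members, gene lists and tests were chosen with earlier results of these data known. Every member probe is named. From each list the text names genes called in any comparison, at most 4 per list and comparison by size, plus Myd88 and Csf1r, and a gene stands for its brightest tested probe. The 3 genes most like a member are those of highest Pearson r. Genes named from the lists without a call were chosen after their values were seen. Names were matched to a RefSeq table (GRCm38.p6), by accession for 22951 probes, by symbol for 6659 and by older symbol for 3109. The other 8455 probes had no match and kept the array's name, and they were left out of the search for genes most like a member. The slide in the file headers equals the replicate number, so the numbers pair the samples: deviations from group means correlated at 0.189 on average between same-numbered arrays (30 pairs, -0.262 to 0.476, 23 over 0.1) and at -0.047 between others (120 pairs). The fits were tested on simulated data, whose outcome is not given here and supports no result. Alternatives were quantile and median scaling, normexp, the value table, other filters, outlier spots kept, replicate block, scan day, array weights, only the 2 groups compared, the mean of a gene's probes, each array left out and, added after the data were seen, the percentile over spots and 1 scan day alone.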

Additional observations from a re-analysis of the deposited data

Results flagged for a closer look

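The Tlr8 probe, not tested because it was well above background on 2 arrays, stood at -3.20 in KO-control replicate 5, where the next highest uninjured knockout was at -6.53 and the gap was 0.755 of the group's range. It stood at -3.32 in WT-injury replicate 5, and both values were above the highest WT-control value of -6.58. The 2 arrays were on the same slide, and the probe is a single spot. The Tlr9 probe was lowest in KO-injury replicate 4, at 0.69, where the next lowest was 1.01 and the gap was 0.716 of the range. Of 44 groups of 5 values examined for a value far from the others, these 2 groups had one, and chance flags about 1 in 20.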

How the results depend on the processing

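After injury in wild-type tracheas, 3 member probes were called, and the count was 1 without a filter on dim probes (Tlr6), 0 with probes well above background on all 20 arrays, which leaves Tlr1, Tlr6 and Tlr7 untested, 1 by the methods' one-way test after Benjamini-Hochberg (Tlr1; 4 before adjustment), 0 to 3 when each array was left out in turn and 0 on the slides of replicates 2, 3 and 4 alone. With the replicate block the count was 2, without Tlr1, and the block changed no other call of a member. With the percentile over spots, chosen after seeing the data, the count was also 2. The methods' one-way test gave adjusted p of 0.0153 for Tlr6 and 0.0183 for Tlr7. For each of these 3 receptors the direction held under all 35 alternatives that tested it, with log2 differences of 1.47 to 2.71 for Tlr1, 0.88 to 2.12 for Tlr6 and 1.23 to 1.96 for Tlr7, the lowest of each with normexp, and adjusted p of at most 0.0296, 0.0389 and 0.0452. Tlr2 was called under 1 alternative, the methods' one-way test before adjustment. In the other 4 comparisons the count of called members was 0 under every alternative. The 35 differences with an unadjusted p of 0.05 or more were called under 0 alternatives, and 17 of them changed sign in at least 1. The Tlr6 probe was not well above background on 1 WT-control array, nor were the Tlr1, Tlr6 and Tlr7 probes on KO-control replicate 3 or the Tlr1, Tlr6 and second Tlr3 probes on KO-injury replicate 5, and such values lie at the limit of detection.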
